A study of Mus musculus with 25 samples.

Results

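The miR-297, miR-466, miR-467 and miR-669 families are microRNAs (miRNAs) of the mouse, most of them cut from hairpins that lie in 1 intron of the gene Sfmbt2. Members were taken by name: every entry of the authors' tables called miR-297, miR-466, miR-467 or miR-669, with any letter, copy number or arm, and every joined entry in which 1 name met this rule. This gave 44 of 1618 miRNA entries, of which 4 were miR-297, 14 miR-466, 9 miR-467 and 17 miR-669. By arm, 22 were 5p, 15 were 3p and 7 carried no arm in the name. Among the 44 were 7 joined entries, in which 1 value stands for several names.

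Small RNA came from the hypothalamus of C57BL/6J wild-type mice aged 3 months and was sequenced as QIAseq libraries with unique molecular identifiers, which count molecules instead of amplified copies. Each group name gives the diet of the dam and then that of the offspring: HCD is a hypercaloric diet with 52% fat and high sucrose, and RD a regular diet. Dams ate their diet from 1 month before mating until the end of lactation, and offspring ate theirs from weaning. HCD-HCD mice thus met HCD before and after weaning, HCD-RD mice through the dam only, RD-HCD mice after weaning only, and RD-RD mice never. HCD-HCD, HCD-RD and RD-HCD had 3 male and 3 female libraries each, and RD-RD had 4 male and 3 female libraries. The labels name no dams or litters and do not say that each library is a separate animal, so a p-value measures only how far these samples vary, and that variation may be technical.

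Levels are given as folds, the group's level over that of RD-RD mice of the same sex, since the tables hold no value per library. The depth is therefore unknown, and the hypothalamic origin could not be checked against marker levels. The 3 male comparisons share the RD-RD males, and the 3 female comparisons share the RD-RD females. The libraries also carry order numbers. The 15 libraries of HCD-HCD and HCD-RD mice and of RD-HCD males have 15 different numbers, and the 10 libraries of RD-HCD females and RD-RD mice have 10 different numbers, with 8 found in both sets. What the sets mark is not stated, so set and group cannot be told apart in any comparison but that of RD-HCD females.

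A miRNA guides the Argonaute complex to messenger RNAs that pair with its seed, bases 2 to 8 from the 5′ end, and lowers their translation and stability. Either arm of a hairpin, 5p or 3p, can be loaded, and the arms carry different seeds. Sfmbt2 encodes a Polycomb-group protein and is imprinted, with expression from the paternal allele in the placenta. Its intronic miRNAs expanded in rodents by repeated duplication, are abundant in the placenta, and are needed there for normal growth of the trophoblast.

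By GENCODE M21 annotation of GRCm38, the same assembly as the mm10 build in the submitters' processing notes, Sfmbt2 lies on the plus strand of chromosome 2 from 10370510 to 10595253. The members' 66 hairpins in it run from 10466663 to 10518279, all within a single intron, numbered 10 or 11 by transcript, and 0 of them overlap an exon of Sfmbt2. Of the 44 members, 37 have hairpins only there. A further 2 members, miR-297a-5p and the joined miR-297 3p entry, also have a copy on chromosome 7. The other 5 members, miR-466i-3p, miR-466k, miR-466q, miR-467h and miR-669n, share the family name but lie on chromosomes 13, 3, 3, 9 and 3. Several members have many copies: miR-467a has 10 hairpins in the intron, the joined miR-669a-5p and miR-669p-5p entry 14, and the joined miR-466b-3p, miR-466c-3p and miR-466p-3p entry 11. Reads of near-identical members can be shared, so the value of a single member is uncertain.

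Mature sequences were found in the RefSeq table (GRCm38.p6) for the 5 members outside Sfmbt2. They are shown, 5′ to 3′ with the seed in capitals, because they hold repeats of alternating bases. No sequence was found there for the members with hairpins inside Sfmbt2, so whether those hold such repeats was not checked.
miR-466i-3p: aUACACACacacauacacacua
miR-466q: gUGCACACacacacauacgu
miR-466k: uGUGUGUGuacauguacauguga
miR-467h: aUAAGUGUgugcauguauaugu
miR-669n: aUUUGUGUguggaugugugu
miR-668-5p: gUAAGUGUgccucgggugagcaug
The repeat CACACAC, read on the given strand, stands in miR-466i-3p and miR-466q and in 0.298% of the 1679 mature sequences of that table. Its counterpart GUGUGUG stands in miR-466k, miR-467h and miR-669n and in 0.655% of the table. Both shares count these members themselves, and the table lacks the members with hairpins inside Sfmbt2. No seed was shared among the 5 members shown, so miR-466i-3p, miR-466k and miR-466q, alike in name, differ at the bases that pick targets. The last line, miR-668-5p from chromosome 12, is not a member. It was the only other listed miRNA found with a seed of these members, that of miR-467h. The search did not cover every chromosome, so further seed mates could have been missed.

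In HCD-HCD males 7 of the 38 members with a p changed at an adjusted p under 0.05, 3 higher and 4 lower. That is 18.4%, against 19.3% of all 1426 miRNAs tested (5.61% higher and 13.7% lower), so the families as a whole were called about as often as miRNAs in general. At an unadjusted p under 0.05 there were 7 higher and 4 lower members, against 32.5% of all miRNAs. Calls rest on the authors' DESeq2 p-values with Benjamini-Hochberg adjustment over all miRNAs. Higher were 3 entries of 3p arms, from miR-297 and miR-466. Lower were 4 entries of 5p arms, the 3 miR-297 5p entries and miR-467e-5p.

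**Figure D1:**
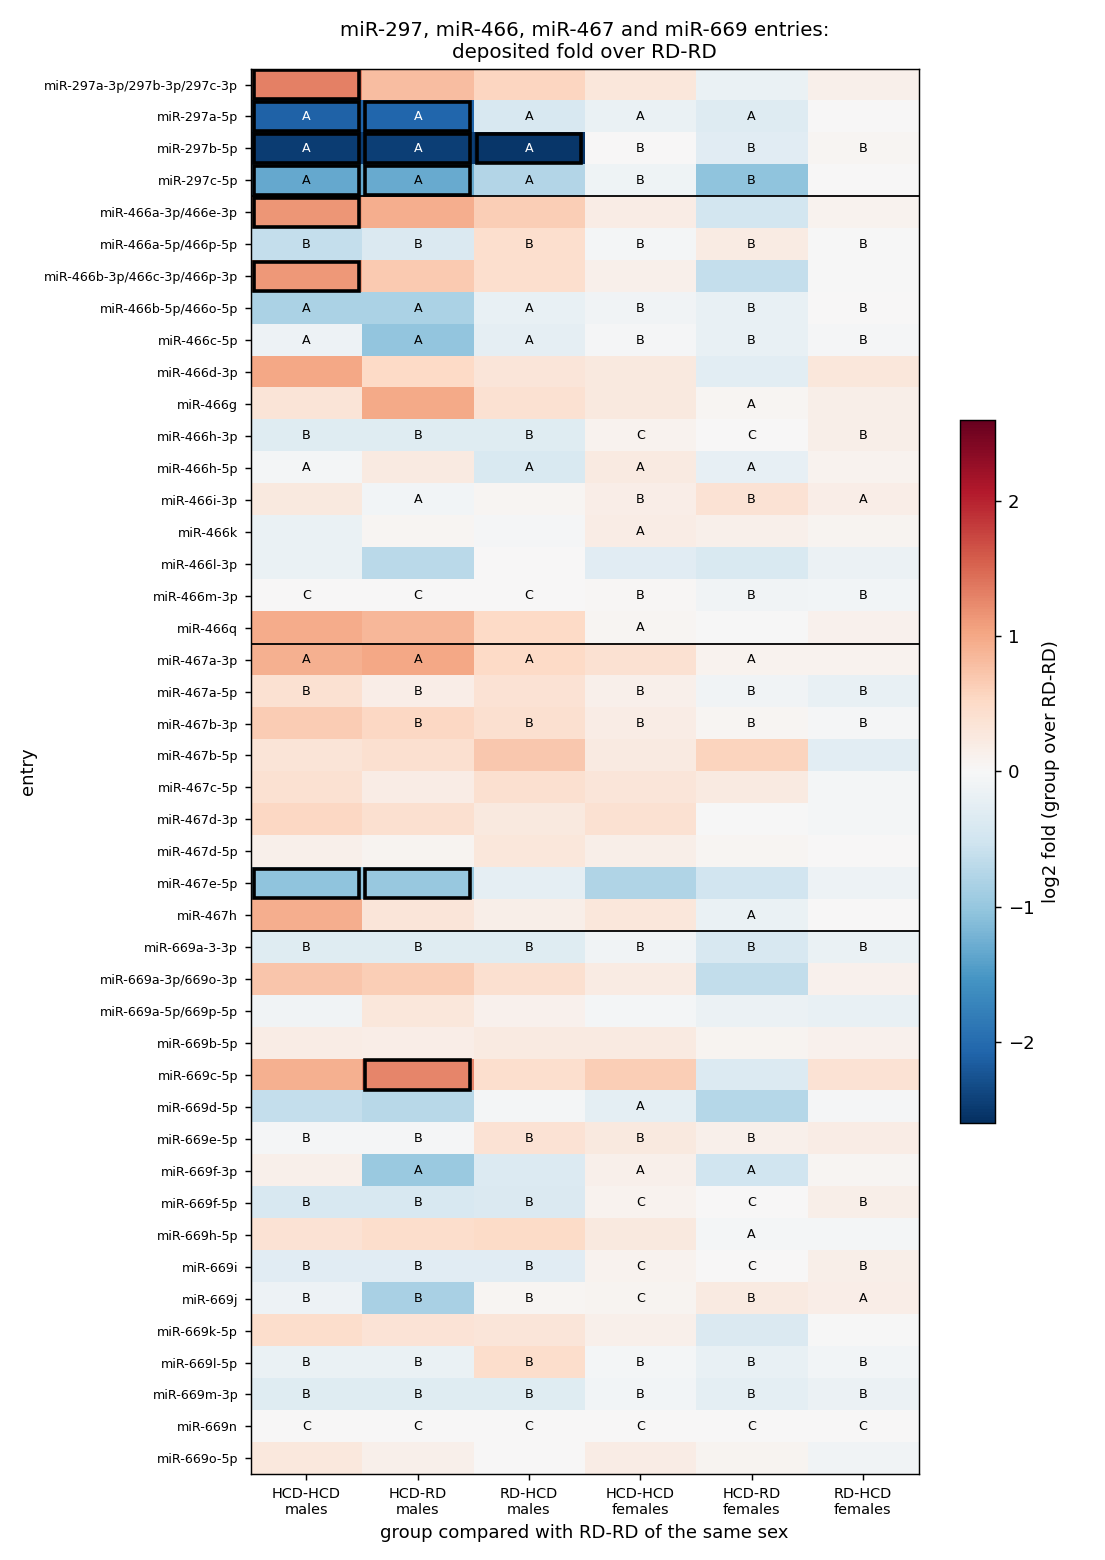
Colour gives the log2 fold of each entry (rows) in each group over RD-RD mice of the same sex (columns), with a black frame where the adjusted p was under 0.05. Letters are the authors' low-count remarks: A, a mean under 10 molecules in 1 group; B, under 10 in both; C, none in either. The 13 frames lie in the male columns, and 7 of them are on the miR-297 5p rows, which carry remark A.

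Among members counted well enough to carry no low-count remark, miR-467e-5p fell in males of HCD-fed dams whatever the offspring ate. Its relatives, the miR-467 5p arms, are known from other cell types: miR-467a-5p is induced by high glucose and represses thrombospondin-1, an inhibitor of vessel growth. No sequence was found here for miR-467a-5p or miR-467e-5p, so whether they share a seed or targets was not checked. In the authors' deposited table, miR-467e-5p stood at 0.483 of the RD-RD level in HCD-HCD males (95% interval 0.356 to 0.656, log2 fold -1.05, standard error 0.23 implied by fold and p, adjusted p = 0.000137). In HCD-RD males the authors' deposited table put it at 0.505 (95% interval 0.372 to 0.687, log2 fold -0.99, adjusted p = 0.000337). In RD-HCD males, whose dams ate RD, it stood at 0.847 in the authors' deposited table (95% interval 0.62 to 1.16, adjusted p = 0.738). The intervals of both groups of HCD-fed dams lie below 1, and that of RD-HCD males spans it.

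The difference between these male groups was itself tested, in which the RD-RD libraries that both groups share entered once. The log2 fold of miR-467e-5p was lower by 0.81 in HCD-HCD than in RD-HCD males (difference -0.81, standard error 0.24, adjusted p = 0.032 by a normal test over all miRNAs). It was the only one of 38 members to pass, against 3.37% of all miRNAs. Between HCD-RD and RD-HCD males the difference was -0.75 (standard error 0.24), with adjusted p = 0.0567, and 0 of 38 members passed against 3.72% of all miRNAs, 3 of them at an unadjusted p under 0.05. Over miRNAs with no remark, the adjusted p of miR-467e-5p was 0.022 in the first test and 0.0327 in the second, so the second call depends on which miRNAs are tested. HCD-HCD and HCD-RD males differed by -0.06 (standard error 0.24), and 0 of 38 members passed there, with 1 at an unadjusted p under 0.05 and 0% of all miRNAs called.

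In females miR-467e-5p also lay below RD-RD in the same groups, less far than in males and with wider errors. In the authors' deposited table it stood at 0.581 of the RD-RD level in HCD-HCD females (95% interval 0.341 to 0.99, unadjusted p = 0.0446, adjusted p = 0.837 by DESeq2 with Benjamini-Hochberg adjustment). The authors' deposited table had it at 0.704 in HCD-RD females (95% interval 0.488 to 1.02, adjusted p = 0.477) and at 0.917 in RD-HCD females (95% interval 0.53 to 1.59, adjusted p close to 1). None of these passed. The sexes were not shown to differ, since the male minus female log2 fold was -0.27 with a standard error of 0.45 in HCD-HCD and -0.48 with a standard error of 0.35 in HCD-RD mice.

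The other miR-467 5p arms did not pass in any comparison. The authors' deposited table gave miR-467b-5p, miR-467c-5p and miR-467d-5p folds of 1.27, 1.32 and 1.1 in HCD-HCD males, and of 1.34, 1.14 and 1.05 in HCD-RD males. For miR-467a-5p, with remark B, the authors' deposited table gave 1.32 and 1.12. All of these values are above 1, where miR-467e-5p is near 0.5. The hairpin of miR-467e lies in the intron from 10505721 to 10505807, as a single copy. Its neighbours are Mir669a-12 from 10503791 to 10503877, Mir466p from 10506006 to 10506094 and Mir467d from 10507630 to 10507714. From Mir467d, miR-467d-5p and miR-467d-3p had folds of 1.1 and 1.45 in HCD-HCD males in the authors' deposited table, and neither passed. Mir466p is 1 of the 11 hairpins of a joined miR-466 3p entry that rose, described below. Its 5p entry, miR-466a-5p/miR-466p-5p with remark B, had deposited folds of 0.654 in HCD-HCD and 0.769 in HCD-RD males. For the joined entries that include Mir669a-12, the deposited folds in HCD-HCD males were 0.943 (5p) and 1.65 (3p). The neighbours thus lay on both sides of 1, and neither these 5p entries nor that miR-669 3p entry passed.

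**Figure D2:**
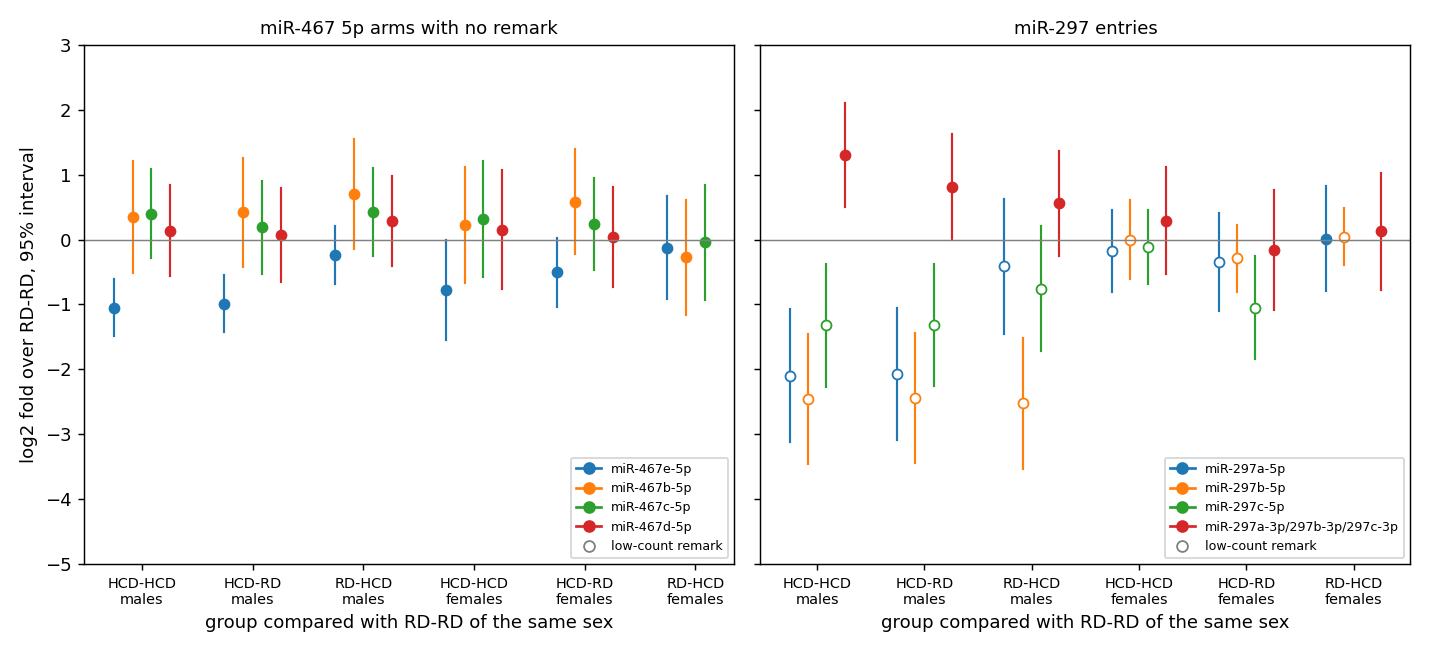
Points are log2 folds over RD-RD mice of the same sex and lines their 95% intervals, for miR-467 5p arms with no remark in these comparisons (left) and miR-297 entries (right), with open points for a low-count remark. In RD-HCD females miR-467d-5p and miR-297c-5p, at a fold of 1 whose interval cannot be had from the rounded fold, are not drawn. In males of HCD-fed dams miR-467e-5p lies near -1 and the other 3 arms shown lie above 0, and the miR-297 5p arms lie below -1.

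The miR-297 family gave the lowest folds among the members, all with few molecules. Of the 3 miR-297 5p entries all fell in HCD-HCD and in HCD-RD males. In the authors' deposited table, miR-297b-5p stood at 0.182 of the RD-RD level in HCD-HCD males (95% interval 0.0907 to 0.364, log2 fold -2.46, adjusted p = 8.7e-05). The authors' deposited table gave it 0.184 in HCD-RD males (adjusted p = 8.1e-05) and 0.174 in RD-HCD males (adjusted p = 0.00141). The folds of the 3 male groups are thus nearly equal, and they share the same RD-RD libraries. For RD-HCD males this was the only member called, 1 of 38 or 2.63%, against 1.47% of all miRNAs (0.14% higher and 1.33% lower), and also the only one at an unadjusted p under 0.05, against 12.5%.

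The other miR-297 5p entries were called in fewer groups. For miR-297a-5p the authors' deposited table listed 0.234 of the RD-RD level in HCD-HCD males (adjusted p = 0.0012), 0.238 in HCD-RD males (adjusted p = 0.00128) and 0.752 in RD-HCD males (adjusted p = 0.841). For miR-297c-5p the authors' deposited table listed 0.4 in HCD-HCD males (adjusted p = 0.0352), 0.402 in HCD-RD males (adjusted p = 0.0369) and 0.592 in RD-HCD males (adjusted p = 0.592). Both miR-297c-5p calls ended under Benjamini-Yekutieli adjustment. So only miR-297b-5p was called in males of RD-fed dams. A difference from RD-HCD males was not shown for miR-297a-5p: it was -1.69 on the log2 scale for HCD-HCD males (standard error 0.56, adjusted p = 0.067) and -1.66 for HCD-RD males (adjusted p = 0.0679).

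All of these male values carry remark A, a mean under 10 molecules in 1 of the groups. In females miR-297b-5p carries remark B, a mean under 10 in both groups, in all 3 comparisons. Remarks do not fix the RD-RD level, since those of comparisons that share RD-RD libraries can conflict. Of the 44 members, 2 in males (miR-467a-5p and miR-467b-3p) and 2 in females (miR-297c-5p and miR-669e-5p) carry no remark in 1 comparison and remark B in another of the same sex. The authors' deposited table lists its fold as 1, 0.82 and 1.03 in HCD-HCD, HCD-RD and RD-HCD females, and none passed. The male minus female difference for miR-297b-5p was -2.46 on the log2 scale in HCD-HCD mice (standard error 0.60, adjusted p = 0.0262), -2.15 in HCD-RD mice (adjusted p = 0.0196) and -2.57 in RD-HCD mice (adjusted p = 0.00676). It was 1 of 37, 1 of 35 and 1 of 37 members called, against 0.894%, 1.21% and 0.671% of all miRNAs. These 3 differences share the RD-RD males and the RD-RD females. Whether 1 of the 4 RD-RD male libraries sets them was not tested, as the tables hold no value per library. In RD-HCD mice the males are in another library set than RD-RD mice and the females are not, so sex and set cannot be told apart there.

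The 3p arm of miR-297 went the other way. The joined miR-297a-3p/miR-297b-3p/miR-297c-3p entry, with no remark in any comparison, rose in HCD-HCD males to 2.47-fold per the authors' deposited table (95% interval 1.42 to 4.31, log2 fold 1.30, standard error 0.41, adjusted p = 0.0125). The authors' deposited table gave 1.75-fold in HCD-RD males (adjusted p = 0.161) and 1.47-fold in RD-HCD males (adjusted p = 0.665). The female values in the authors' deposited table were 1.22 for HCD-HCD, 0.893 for HCD-RD and 1.09 for RD-HCD. Only the HCD-HCD male value passed, and the intervals of the other 5 span 1.

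Among miR-466 members, 2 joined 3p entries rose in HCD-HCD males. In the authors' deposited table, miR-466a-3p/miR-466e-3p rose to 2.21-fold (95% interval 1.28 to 3.8, log2 fold 1.14, standard error 0.40, adjusted p = 0.027). The joined miR-466b-3p/miR-466c-3p/miR-466p-3p entry, which stands for 11 hairpins, rose as well, to 2.17-fold by the authors' deposited table (95% interval 1.28 to 3.69, adjusted p = 0.0271). Neither carries a remark in any comparison. With Benjamini-Yekutieli adjustment neither these nor the joined miR-297 3p entry was called. In HCD-RD males the authors' deposited table put them at 1.93 and 1.6, and in RD-HCD males at 1.56 and 1.36. In females the authors' deposited table had 1.15 and 1.1 for HCD-HCD, 0.719 and 0.654 for HCD-RD, and 1.07 and 0.99 for RD-HCD. None of these passed.

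Other miR-466 members missed the threshold. In HCD-HCD males miR-466d-3p stood at 2.02-fold (adjusted p = 0.0565) and miR-466q at 1.96-fold in the authors' deposited table, both at an unadjusted p under 0.05. In HCD-RD males an unadjusted p under 0.05 was also reached by miR-466g, at 1.98-fold in the authors' deposited table, by miR-466c-5p, at 0.49 with remark A, and by miR-466l-3p, at 0.613 with no remark. As background, miR-466l is known in macrophages to bind the AU-rich element of the interleukin-10 messenger RNA and to slow its decay. For miR-466l-3p the other folds in the authors' deposited table were 0.885 in HCD-HCD males, 1.01 in RD-HCD males, and 0.813, 0.763 and 0.901 in HCD-HCD, HCD-RD and RD-HCD females.

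In HCD-RD males 5 of 38 members were called, 13.2% against 18.4% of all miRNAs, with 4 lower (12% of all miRNAs) and 1 higher (6.38%). At an unadjusted p under 0.05 there were 3 higher and 6 lower members, against 32.1% of all miRNAs. The 4 lower are the miR-297 5p entries and miR-467e-5p, described above. The 1 higher was miR-669c-5p, with no remark in males, which rose, to 2.4-fold by the authors' deposited table (95% interval 1.31 to 4.38, log2 fold 1.26, standard error 0.44, adjusted p = 0.0297). In HCD-HCD males it stood at 1.89-fold (unadjusted p = 0.0374) and in RD-HCD males at 1.36-fold in the authors' deposited table, neither of them called. With Benjamini-Yekutieli adjustment the HCD-RD call ended. In females the authors' deposited table lists 1.55 for HCD-HCD and 1.29 for RD-HCD, neither called, and 0.781 with no p for HCD-RD.

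The remaining miR-669 members passed in no comparison. Among those with no remark in males, miR-669d-5p stood at 0.654 in HCD-HCD and 0.602 in HCD-RD males in the authors' deposited table. There miR-669b-5p, miR-669k-5p and miR-669o-5p stood at 1.15, 1.38 and 1.21 in HCD-HCD males. In HCD-RD males they stood at 1.13, 1.28 and 1.1. The best represented in the intron are the arms of miR-669a, a miRNA known in mouse heart progenitor cells to repress the muscle regulator MyoD. In HCD-HCD males the authors' deposited table put the fold of miR-669a-3p/miR-669o-3p at 1.65 and that of miR-669a-5p/miR-669p-5p at 0.943. For miR-669a-3p/miR-669o-3p the authors' deposited table gave 1.56 in HCD-RD males and 0.641 in HCD-RD females, with a sex difference of 1.28 on the log2 scale that did not pass (adjusted p = 0.245). Of the 5 members outside Sfmbt2, 4 had a p in each comparison, and 0 of these were called. All miRNAs were called at 19.3% in HCD-HCD and 18.4% in HCD-RD males, so 4 members are too few for a contrast with those inside. Among them miR-467h had the smallest p, at 1.93-fold in HCD-HCD males in the authors' deposited table (unadjusted p = 0.0188 by DESeq2). Its seed mate miR-668-5p stood at 0.971 there in the authors' deposited table.

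In HCD-HCD males 3 of 11 members of 3p arms were called, all higher, and 4 of 22 members of 5p arms, all lower. Among other miRNAs 40 of 575 of 3p arms were higher and 78 lower, and 32 of 603 of 5p arms were higher and 85 lower. The 3 calls of 3p arms all ended under Benjamini-Yekutieli adjustment. The split was not repeated in HCD-RD males, where 0 of 11 members of 3p arms were called, and of 22 of 5p arms 1 was higher and 4 lower. Other miRNAs there had 44 of 575 3p arms higher and 70 lower, and 39 of 603 5p arms higher and 78 lower. In RD-HCD males 0 of 11 members of 3p arms were called, and 1 of 22 of 5p arms, lower. Both arms were followed up in 14 hairpin names with both arms listed, a comparison chosen after the data were seen. In HCD-HCD males the fold of the 3p arm was above that of the 5p arm in 13 of 13 pairs with p-values, with a median difference of 1.26 on the log2 scale. Other miRNAs showed that order in 250 of 447 pairs, with a median difference of 0.13. In HCD-RD males the members had 12 of 13 pairs in that order and in RD-HCD males 10 of 13, against 249 and 253 of 447 other pairs.

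The order was not the same in every female group. It held in 11 of 13 member pairs in HCD-HCD females and in 10 of 13 in RD-HCD females, but in 4 of 12 in HCD-RD females, against 244 of 473, 236 of 473 and 198 of 386 other pairs. The pairs are not independent, since joined entries stand in several of them (9 different 3p and 13 different 5p entries). Low counts move with the arm: in HCD-HCD males 11 of 22 members of 5p arms had no remark, against 10 of the 11 members of 3p arms with a p. Among pairs with no remark on either arm the gap in HCD-HCD males was smaller: the 3p arm was above in 4 of 4 member pairs, with a median difference of 0.42, and in 126 of 213 other pairs, with a median of 0.22. It was above in 3 of 3 such member pairs in HCD-RD males and 2 of 3 in RD-HCD males. In females it was above in 3 of 3 in HCD-HCD, 0 of 3 in HCD-RD and 4 of 5 in RD-HCD mice. The difference between arms was not tested.

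**Figure D3:**
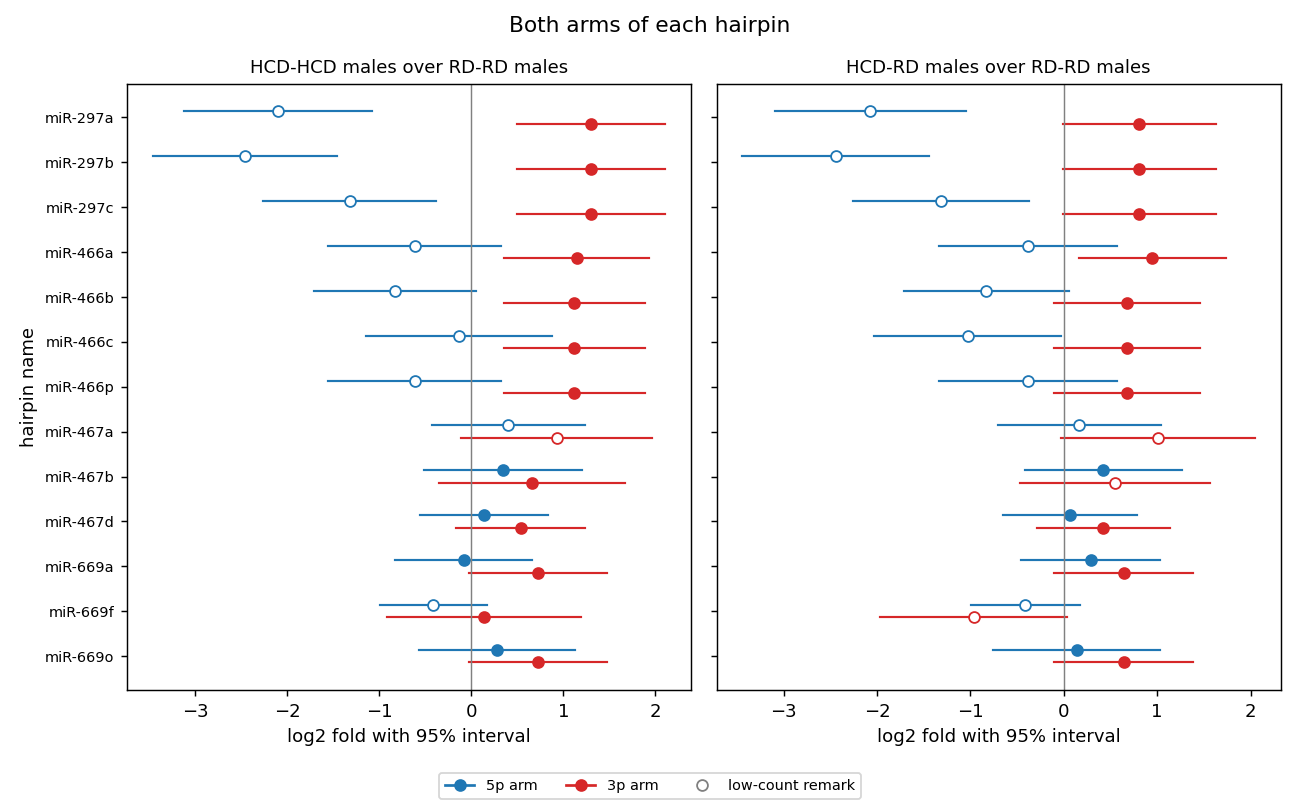
Each row is a hairpin name with its 5p arm (blue) and 3p arm (red), as log2 fold over RD-RD males with the 95% interval, in HCD-HCD males (left) and HCD-RD males (right). Open points carry a low-count remark, and joined entries appear in more than 1 row. In HCD-HCD males the red point is right of the blue one in 13 of 13 rows, with the widest gaps for miR-297.

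Along the intron, neighbouring hairpins gave members on both sides of 1. The called lower members miR-467e-5p, miR-297c-5p and miR-297b-5p come from single hairpins 135.211, 138.506 and 141.157 kb from the start of Sfmbt2. The called higher entries have copies across the array, and that of miR-297 3p comes from the same hairpins as the lower miR-297 5p entries.

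**Figure D4:**
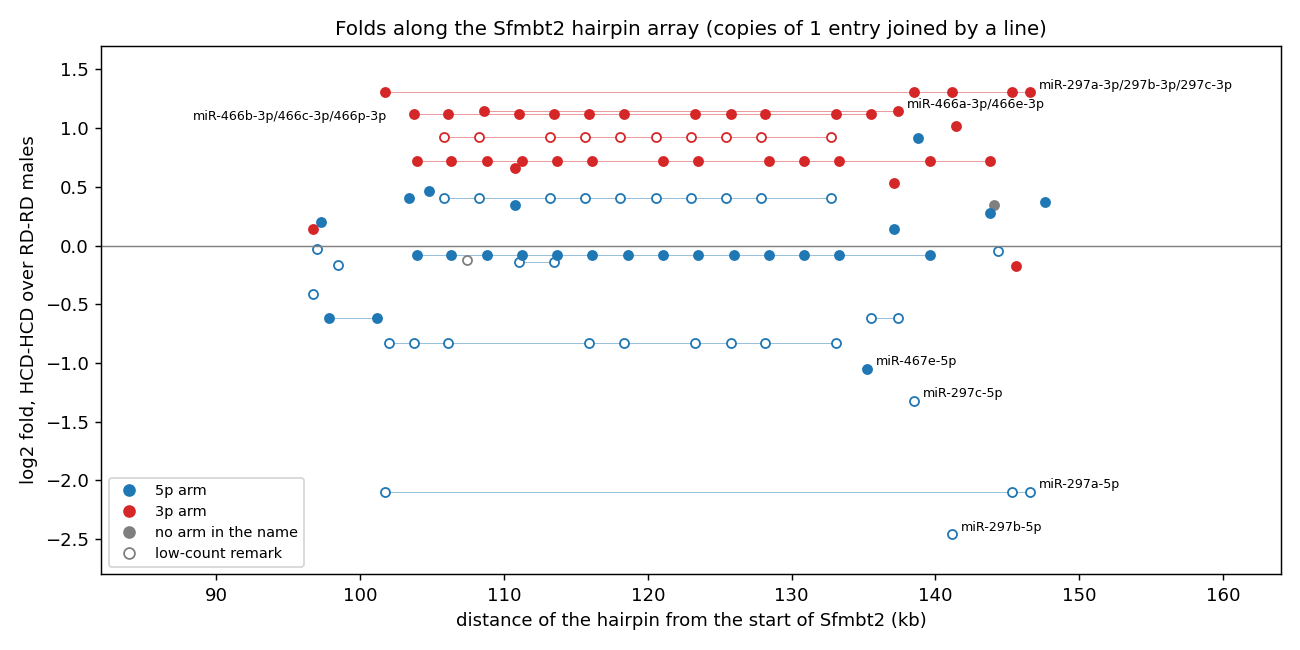
Distance of each hairpin from the start of Sfmbt2 in kb (horizontal) against the log2 fold of its member in HCD-HCD males over RD-RD males (vertical), with copies of 1 entry joined by a line and called members named. Blue is 5p, red 3p, grey no arm in the name, and open points carry a low-count remark. Higher and lower members are interleaved along the 51.6 kb that the hairpins span.

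Most members that are counted well lay above RD-RD in males, by small amounts. Of members with no remark and a p, 20 of 25 had a fold above 1 in HCD-HCD males, with a median log2 fold of 0.37. In HCD-RD males it was 20 of 23, with a median of 0.36, and in RD-HCD males 20 of 25, with a median of 0.31. Over all miRNAs with no remark the medians of these 3 groups were 0.06, 0.08 and -0.01. Set against those medians instead of 1, the members above were 20 of 25, 18 of 23 and 21 of 25. Most of these members passed no test singly, and the 3 comparisons share their RD-RD libraries.

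Tested and adjusted over miRNAs with no remark alone, 4 members were called in HCD-HCD males, 2 in HCD-RD males and 0 in RD-HCD males, against 23.4%, 25.2% and 0% of those miRNAs. In females 0 members were called in this way in HCD-HCD, HCD-RD and RD-HCD mice, against 1.7%, 4.11% and 0%.

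Members with a remark lay lower. In HCD-HCD males 2 of 13 of them had a fold above 1 and 11 a fold below. Low-count miRNAs of the whole table were lower too: with them included, all miRNAs had medians of -0.26 (HCD-HCD males), -0.25 (HCD-RD males) and -0.12 (RD-HCD males) on the log2 scale. Relative to those medians all members with a p, with or without a remark, stood higher by 0.50, 0.42 and 0.40. Members with a remark alone had medians of -0.16 (HCD-HCD males), -0.41 (HCD-RD males) and -0.19 (RD-HCD males). These lay above the median of all miRNAs in HCD-HCD males only, but that median includes miRNAs with no remark, so the comparison is unlike. In HCD-HCD males 491 of 1426 miRNAs had a fold above 1, and 408 of these were among the 757 with no remark. Most miRNAs with a remark thus lay below 1 there too. Members with a remark had a fold above 1 in 3 of 15 in HCD-RD males and 6 of 13 in RD-HCD males. In each male group a larger share of members than of all miRNAs had no remark, and its part in the gap was not tested. A fold below 1 at low counts is thus common in the male tables, and its part in the miR-297 5p values was not tested.

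In females 0 members were called by the authors' DESeq2 p-values with Benjamini-Hochberg adjustment. In HCD-HCD females it was 0 of 42, against 0.0668% of all miRNAs, with miR-467e-5p the only member at an unadjusted p under 0.05, against 5.61%. In HCD-RD females it was 0 of 38, against 1.69% (1% higher and 0.693% lower). There miR-297c-5p was the only member at an unadjusted p under 0.05, against 11.5% of all miRNAs, at 0.483 of RD-RD with remark B in the authors' deposited table (unadjusted p = 0.0092). In RD-HCD females it was 0 of 42, against 0%, and 0 at an unadjusted p under 0.05, against 1%.

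The share above RD-RD varied between the female groups. Of members with no remark and a p, 17 of 20 had a fold above 1 in HCD-HCD females (median log2 fold 0.23), 6 of 18 in HCD-RD females (median -0.16) and 15 of 28 in RD-HCD females (median 0.01). Over all miRNAs with no remark the medians were 0.03, 0 and -0.01. HCD-RD females have a table of their own, normalised apart from the rest but against the same RD-RD females. Some values of HCD-RD males lie far from theirs, for example 1.93 in HCD-RD males against 0.719 in HCD-RD females for miR-466a-3p/miR-466e-3p in the authors' deposited table, and the male minus female difference of 1.42 on the log2 scale did not pass (adjusted p = 0.212).

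Many members sat at the edge of detection. No remark in any of the 6 comparisons was given to 16 of the 44, and a remark in all 6 to 13. In males 6 members had no p, and their folds in the authors' deposited table were equal in the 3 comparisons: 0.806 for miR-466h-3p, miR-669a-3-3p and miR-669m-3p, 0.82 for miR-669i, and 1 for miR-466m-3p and miR-669n, which carry the remark of no molecules. The last of these, miR-669n, had no p in any comparison. In HCD-HCD females 3 members have a p beside the remark of no molecules in either group, which the file headers call uninterpretable. Of these, miR-669j carries remark A at a fold of 1.13 in RD-HCD females in the authors' deposited table, against the same RD-RD females. Both remarks hold only if RD-RD had no molecules and RD-HCD a mean of 10 or more. The fold of 1.13 does not show such a gap.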

How the data were processed

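The authors' deposited tables list a fold (a ratio to RD-RD after DESeq2 normalisation), a fold regulation score and an unadjusted DESeq2 p-value per miRNA, per the file headers. The fold has 2 decimals, and below 1 it was taken as the inverse of the fold regulation. A remark by the authors marks means under 10 molecules. No aligner or annotation is named in the sources used here. Of 43 libraries in the sample sheets 25 were compared, the other 18 were not analysed here, and the numbers of the 3 RD-HCD male libraries differ from those in their titles.

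Adjustment was by Benjamini-Hochberg over all miRNAs with a p (103 piRNAs left out) with calls under an adjusted p of 0.05. Standard errors are the log2 fold, at the far end of its rounding, over the normal score of p, and give 95% intervals. Differences between sexes and between male groups used a normal test on these, adjusted over all miRNAs. The scripts were tested on simulated data. A count test was planned but could not be run on folds.

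Candidates for naming were called members, up to 4 members with the smallest p per direction and comparison, and members with no remark in all 6. Not all of these are described. The authors' filtered list of HCD-HCD against RD-HCD males holds 0 members among 47 entries. Members, lists and tests were chosen with earlier results of these data known. Alternatives were only miRNAs with no remark, Benjamini-Yekutieli adjustment, a fold of at least 1.5 and an unadjusted p under 0.01. Others were centred folds and only members with a hairpin inside Sfmbt2. Python 3.11.15, pandas 2.3.3 and scipy 1.17.1 were used.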

Additional observations from a re-analysis of the deposited data

Results flagged for a closer look

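The fold of miR-297b-5p differed between males and females under each of the 3 diets, by the normal test of the difference. The male minus female log2 fold was -2.46 under HCD-HCD, -2.15 under HCD-RD and -2.57 under RD-HCD, each over RD-RD mice of the same sex. The 3 values share the RD-RD males and the RD-RD females, and miR-297b-5p carries a low-count remark in all 6 comparisons, A in males and B in females. Under RD-HCD only the males are in another library set than RD-RD mice, so sex and set cannot be told apart there.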

How the results depend on the processing

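With only miRNAs that carry no low-count remark, called members were 4 in HCD-HCD males (3 higher, 1 lower), 2 in HCD-RD males (1 higher, 1 lower) and 0 in RD-HCD males. Under the same restriction the sex differences were 0 under each of the 3 diets, and 1 member, miR-467e-5p, differed between HCD-RD and RD-HCD males. By construction this leaves out the miR-297 5p entries in males. With Benjamini-Yekutieli adjustment 3 of 38 members were called in HCD-HCD males and 3 of 38 in HCD-RD males, all lower. At an unadjusted p under 0.01, 1 of 38 members was called in HCD-RD females, miR-297c-5p. The share of all miRNAs called under either setting is not given here, so these counts cannot be set against a background. A fold of at least 1.5 and centred folds left the count within 1.5 times the reported one in all 6 comparisons. So did keeping only members with a hairpin inside Sfmbt2, which retained the 2 that also have a copy elsewhere. With those 2 left out as well, 32 members had a p in each male comparison. Of these, 5 were called in HCD-HCD males, 4 in HCD-RD males and 1 in RD-HCD males, against 19.3%, 18.4% and 1.47% of all miRNAs. Leaving out single libraries was not run, since the tables hold no value per library. No paired analysis was possible because the same tables give 1 fold per comparison. The depth is unknown, and low counts limit 13 members in all 6 comparisons.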
